A study of Mus musculus with 4 samples.

Results

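The 10 genes described here encode surface proteins by which mesenchymal stem cells (MSCs) of bone are recognised: Pdgfra, Ly6a, Eng, Nt5e, Thy1, Cd44, Pdgfrb, Mcam, Cspg4 and Alcam. Chromatin accessibility at these genes was taken from an ATAC-seq table of 117282 peaks, in which a transposase marks DNA that is open in the nucleus. All peaks that overlapped 1 of the genes or the 5 kb upstream of its start were taken (mm10 coordinates, GENCODE vM21 annotation of GRCm38), which gave 51 peaks. Alcam held 12 of them, Cd44 10, Pdgfra, Pdgfrb, Cspg4 and Nt5e 5 each, Eng 4, Thy1 and Mcam 2 each, and Ly6a 1. The overlap rule used no accessibility value, but the genes were chosen with earlier results of these data known. The samples were 2 MSC cultures labelled as from old mice of 18 to 22 months and 2 from young mice of 3 to 5 months, all grown at 2% O2. The comparison of the age groups asks how ageing changes the chromatin of these cells. The study's methods, which were written for MSCs of young wild-type male C57BL/6N mice cultured at high or low oxygen, describe outgrowth from bone chips followed by a sort for CD45-/TER-119-/CD140a+/Sca-1+ cells. The strain and sex of the old animals, whether this sort was used for them and whether animals were pooled are not given in the sources used here.

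MSCs are adherent stromal cells that can form bone, cartilage and fat, and no single surface protein defines them. Pdgfra (CD140a, a receptor for platelet-derived growth factors) and Ly6a (Sca-1, a lipid-anchored protein of the Ly6 family) are the antigens of the sort. Eng (CD105, a co-receptor for TGF-beta family ligands), Nt5e (CD73, an enzyme that makes adenosine from AMP), Thy1 (CD90, a lipid-anchored glycoprotein) and Cd44 (the hyaluronan receptor) belong to the general criteria for MSCs. Pdgfrb (the other receptor for platelet-derived growth factors), Mcam (CD146, an adhesion molecule) and Cspg4 (NG2, a chondroitin sulphate proteoglycan) mark perivascular cells, and Alcam (CD166) is an adhesion molecule that binds CD6. Open chromatin at a gene shows that its regulatory DNA is reachable, and is not a measure of its RNA or protein.

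The deposited values were whole multiples of 1 step in each sample, which gave library totals of 28259470 to 32559794 counts. Old replicate 1 stood apart: 36.9% of its total fell in nuclear peaks, beside 47.0% in old replicate 2 and 49.8% and 53.7% in the young samples. Old replicate 2 held less mitochondrial signal, 6.52% beside 13.5% to 15.7%, and correlated least with the young samples (Pearson r = 0.935 and 0.924 across peaks, which are not independent replicates, beside 0.952 and 0.948 for old replicate 1). Relative to the autosomes its peaks on chromosome 11, where no marker gene lies, were shifted by 0.17 on the log2 scale, and those on the chromosomes of the marker genes by -0.07 to 0.05. A single value of 2 against 2 samples cannot reach the usual threshold in an exact permutation test. Nothing in the labels says that the samples are separate animals, so p-values measure the spread between these samples, which may be technical.

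A promoter window of 250 bases was looked up for each gene in RefSeq's promoter table (GRCm38.p6), where 7 of the 10 genes matched. Ly6a, Thy1 and Pdgfrb had no entry there. The windows do not all lie before the GENCODE start from which other distances here are measured. Those of Eng, Cd44 and Pdgfra lay before it, and those of Mcam and Cspg4 reached past it into the gene. The windows of Nt5e and Alcam lay wholly inside the gene. Each of the 7 windows lay under the promoter peak of its gene. The sequences of 5 of them follow 5′ to 3′ on the gene's strand, since they cover the contrasts met below: a gate antigen, the gene with the widest promoter peak, 2 genes whose promoter peak was higher in both old samples, and the gene with the densest promoter peak. Capitals mark matches on either strand to the GC box (GGGCGG), the CCAAT box (CCAAT), the core of the hypoxia response element (ACGTG) and the E-box (CANNTG); the TATA box (TATAAA), the AP-1 site (TGANTCA) and the RUNX site (TGTGGT) were searched too, and adjoining capitals can hold matches that overlap.
Pdgfra, chr5:75152001-75152250, + strand: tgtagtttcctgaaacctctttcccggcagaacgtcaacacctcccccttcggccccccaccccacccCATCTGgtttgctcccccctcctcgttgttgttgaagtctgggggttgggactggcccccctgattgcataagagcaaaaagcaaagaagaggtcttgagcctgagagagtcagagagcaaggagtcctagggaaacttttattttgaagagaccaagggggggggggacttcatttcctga
Cd44, chr2:102901666-102901915, - strand: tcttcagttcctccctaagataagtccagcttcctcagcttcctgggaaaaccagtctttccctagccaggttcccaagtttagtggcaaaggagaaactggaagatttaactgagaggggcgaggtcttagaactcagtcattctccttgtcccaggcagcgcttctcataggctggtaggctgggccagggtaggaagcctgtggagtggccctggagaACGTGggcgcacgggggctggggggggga
Cspg4, chr9:56864854-56865103, + strand: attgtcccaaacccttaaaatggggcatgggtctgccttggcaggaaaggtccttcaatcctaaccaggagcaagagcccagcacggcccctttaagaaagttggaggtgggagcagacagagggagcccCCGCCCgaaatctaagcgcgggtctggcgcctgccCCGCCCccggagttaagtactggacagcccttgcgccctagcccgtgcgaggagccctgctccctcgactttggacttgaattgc
Nt5e, chr9:88327359-88327608, + strand: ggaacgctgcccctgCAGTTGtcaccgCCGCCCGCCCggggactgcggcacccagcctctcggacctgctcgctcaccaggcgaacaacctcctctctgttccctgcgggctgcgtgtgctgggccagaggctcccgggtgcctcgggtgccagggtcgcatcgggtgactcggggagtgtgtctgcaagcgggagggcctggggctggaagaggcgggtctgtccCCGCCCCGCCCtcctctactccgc
Alcam, chr16:52453082-52453331, - strand: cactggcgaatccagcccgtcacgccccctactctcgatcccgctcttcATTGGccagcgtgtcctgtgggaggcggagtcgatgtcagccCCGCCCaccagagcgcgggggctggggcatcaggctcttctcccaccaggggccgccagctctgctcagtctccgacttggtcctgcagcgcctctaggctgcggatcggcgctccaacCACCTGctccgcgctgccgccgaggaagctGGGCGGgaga

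The 7 windows differed in CpG. The windows of Mcam, Alcam, Nt5e and Cspg4 held 25, 22, 21 and 12 CpG, whereas those of Cd44, Eng and Pdgfra held 5, 4 and 4, with a median of 6 over 32851 promoter windows of this length. The 4 windows with many CpG were also those that lay inside the gene or reached into it by the GENCODE start, and the other 3 lay before it. A difference in kind of promoter cannot be told apart from this difference in placement. The same 4 genes with many CpG carried the GC box, and the other 3 had none. There were 5 matches in Mcam, 4 in Nt5e and 2 each in Cspg4 and Alcam. The letters of the GC box hold a CpG themselves, so these counts are not independent of the CpG counts. A GC box stood in 32.7% of all windows. The ACGTG core was found in the Cd44 window and in no other of the 7, beside 16.6% of all windows, and the CCAAT box in the Alcam window alone, beside 33.8%. An E-box was found in 5 of the 7 and in 66.2% of all windows. No match to the TATA, AP-1 or RUNX letters lay in these windows, and 12.4%, 6.75% and 14.0% of all windows held one. These matches describe letters only.

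All 10 genes had an open promoter, a peak that covered the gene's start. The peaks were wide: the 10 promoter peaks had a median width of 7200 bp, beside 2500 bp for all 16213 promoter peaks, that is, peaks lying no more than 1 kb from where a protein-coding transcript begins. A width of at least 8 kb was reached by 5 of the 10 and by 6.76% of all promoter peaks. The widest was that of Cd44, which ran over 36.7 kb, from -1435 to 35264 bp of the start (chr2:102866401-102903100). The promoter peaks of Pdgfrb (18.9 kb), Cspg4 (15.4 kb) and Pdgfra (15.2 kb) also reached far into their genes, and the 8.9 kb peak of Ly6a covered the whole gene. Those of Thy1, Nt5e, Alcam, Eng and Mcam were 5.5, 5.1, 4.9, 3.1 and 3.1 kb wide.

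Wide did not mean dense. The deposited values grow with the width of a peak, so levels were compared between genes per kb of peak. By this measure 9 of the 10 promoter peaks lay below the median of all promoter peaks, and Alcam stood apart at the 92.3 percentile. Pdgfra and Pdgfrb, at the 98.2 and 98.9 percentile of width, were at the 42.2 and 41.9 percentile of density. The promoter peaks of the 10 genes also held fewer CpG per kb of peak, with a median of 16.2 beside 31.7 for all promoter peaks. Neither the CpG medians nor the density percentiles were matched for width, at a median of 7200 bp beside 2500 bp. Whether lower density and lower CpG go with greater width was not tested. Peaks covered a median of 44.7% of the length of these genes, beside 14.98% for the 17308 protein-coding genes with a peak. In the lists of other surface genes used below, the median was 32.1% for stromal and 10.9% for blood and endothelial genes. Pdgfrb was covered to 80.0% and Cspg4 to 68.7%, but Alcam, a gene of 205079 bp, to 9.64%.

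**Figure D1:**
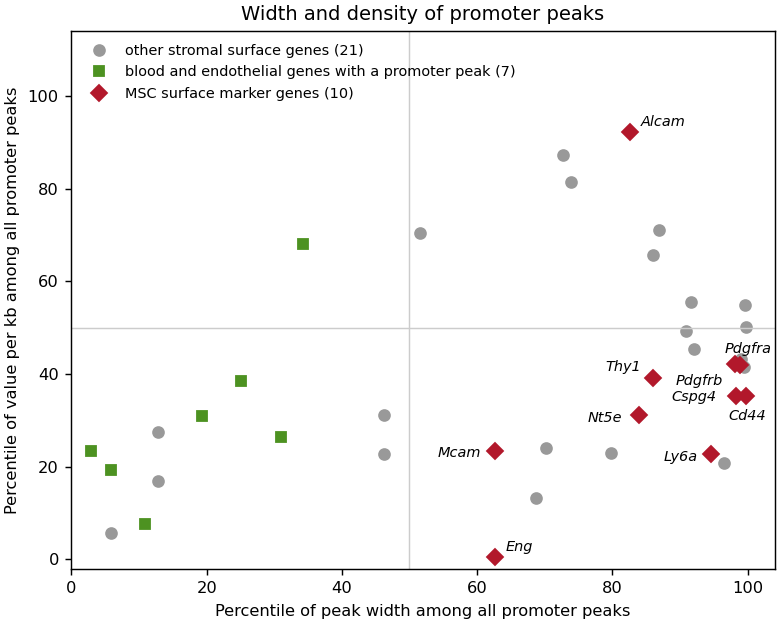
Each point is the promoter peak of 1 gene, with the percentile of its width on the x axis and the percentile of its value per kb of peak on the y axis, both among all 16213 promoter peaks (grey lines, the 50 percentile). All 10 MSC surface marker genes lie right of the line for width, and of these Alcam alone lies above the line for density. The blood and endothelial genes, of which 7 of 12 had a promoter peak, all lie left of the line for width.

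The marker genes were set beside lists of other surface genes to see where they differed. Of 12 genes that mark blood or endothelial cells, 5 had no promoter peak, among them Ptprc (CD45, the common leukocyte antigen, which the sort selects against). The promoter peaks of the other 7 had a median width of 1500 bp. Those of Cd34 (1900 bp) and Pecam1 (600 bp, a peak it shares with the start of the neighbouring gene Milr1) were narrow, at 15.8 and 14.5 counts per 10000000 per kb. All 21 genes of a list of other stromal surface proteins had a promoter peak, with a median width of 4500 bp, between the other sets. A width of at least 8 kb was reached by 5 of these 21 (23.8%). The widest, that of Cd151 (37200 bp), was wider than that of Cd44. Those of Cd9 and Cd81 were 32700 and 27100 bp wide, so very wide promoter peaks were not particular to the marker genes. In the same list Lepr, the leptin receptor that marks stromal cells of adult marrow, had a promoter peak of 800 bp at 8.52 counts per 10000000 per kb. The absence of a peak means only that none was called, and a small share of other cells in the cultures cannot be told apart from weak accessibility in MSCs.

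The order of the 10 promoters by density was led by Alcam. Its deposited values per kb of promoter peak, in counts per 10000000 of the library total, were 56.7 and 55.5 in the old samples and 74.2 and 76.0 in the young. Below Alcam came a group without clear steps: Pdgfra (mean 23.4 over the 4 samples), Pdgfrb (23.2), Thy1 (22.0), Cspg4 (20.1), Cd44 (20.1), Nt5e (18.2), Mcam (14.5) and Ly6a (14.3). Each of these overlapped its neighbours in the order over the 4 samples, and their SD ran from 1.47 for Ly6a to 5.12 for Cspg4. Eng came last, with 4.96 and 7.23 in the old and 8.33 and 5.26 in the young samples, all below every value of Ly6a, the next gene above. The promoter peak of Eng was among the least dense 0.623% of all promoter peaks. Other peaks of the gene were denser: a peak over its last exons (chr2:32679701-32681400) had a mean of 31.4 per kb and an intronic peak (chr2:32653401-32655800) 24.5. Mcam likewise had its densest peak upstream of the promoter, at 27.8 per kb (chr9:44129301-44131100), where the noncoding gene Gm10687 also lies. The Ly6 family is a cluster of similar genes, and how reads that fit several copies were placed beyond the mapping quality cut-off is not given in the sources used here.

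**Figure D2:**
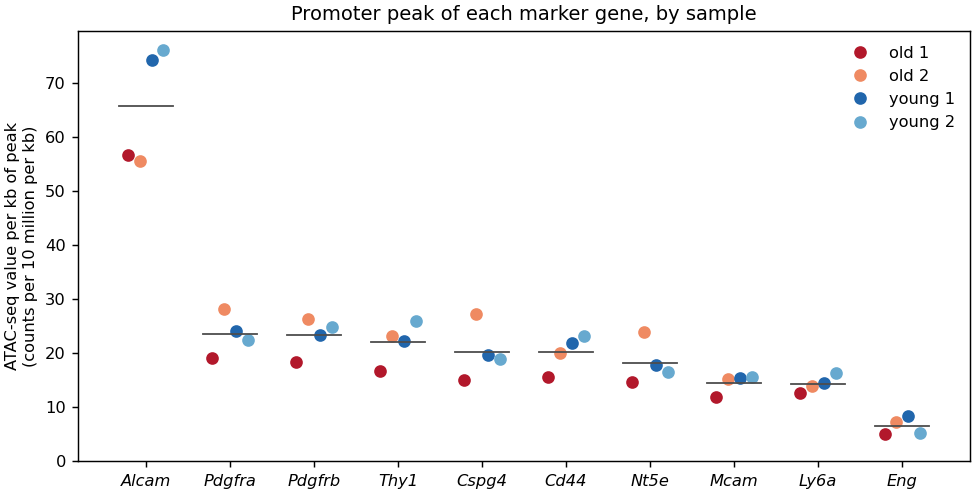
Deposited ATAC-seq value per kb of the promoter peak (y axis, counts per 10000000 per kb, not scaled between samples) for each gene, 1 point per sample and a line at the mean of the 4 samples. Alcam lies above all others in every sample, from 55.5 to 76.0, and Eng below all others, from 4.96 to 8.33. The point of old replicate 1 is the lowest for all genes except Alcam.

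All 10 promoters carried signal in all 4 samples, and the promoter peaks differed between old and young MSCs by -0.13 (Alcam) to 0.42 (Nt5e) on the log2 scale. In bulk cultures, more cells with an open site and a more open site per cell cannot be told apart. For this comparison, values were divided by a scaling factor for each sample (relative log expression, RLE), so that a difference is one relative to the bulk of peaks. With limma, fitted across all peaks, none of the 51 peaks passed an adjusted p of 0.01 in either direction, and limma-voom on the recovered counts likewise called 0. Among all peaks tested 0.0307% passed as lower and 0.0256% as higher in old MSCs, against which a count of 0 among 51 is no result about these genes. At an unadjusted p under 0.05, 2 of the 51 were lower and 10 higher in old MSCs, which is 3.92% and 19.6%, beside 8.87% and 7.49% of all peaks. In 10 peaks both old samples lay below both young samples and in 21 both lay above, 19.6% and 41.2% of the marker peaks, whereas the shares over all peaks were 24.2% and 23.2%. The median log2 difference, old minus young, was 0.08 over the 51 peaks and 0.00109 over all peaks, and 23 of the 51 were below 0.

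The counts changed most on leaving out old replicate 1, the sample with the least signal in peaks. Without it, 10 marker peaks were higher and 1 lower at an adjusted p under 0.01, in Pdgfra, Cspg4, Nt5e, Eng, Cd44 and Alcam, with the lone old sample assumed to vary like the young. Calls rose over the whole table too, to 3.35% of all peaks as higher and 5.45% as lower. Without old replicate 2, 0 marker peaks were higher and 1 lower, the narrow Cd44 peak described below, beside 0.393% and 1.05% of all peaks. Without young replicate 1, 0 passed, beside 0.00682% of all peaks higher and 0.00171% lower, and without young replicate 2, 0 passed, beside 0.0102% and 0%. On the values as deposited, without scaling, the marker peaks whose groups did not overlap were 19 lower and 1 higher, beside 43.5% and 7.56% of all peaks. This scale lowers all peaks together, with a median of -0.27, and 11 of the 51 differences changed sign on it. Whether the low share of old replicate 1 in peaks shaped these differences was not tested.

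**Figure D3:**
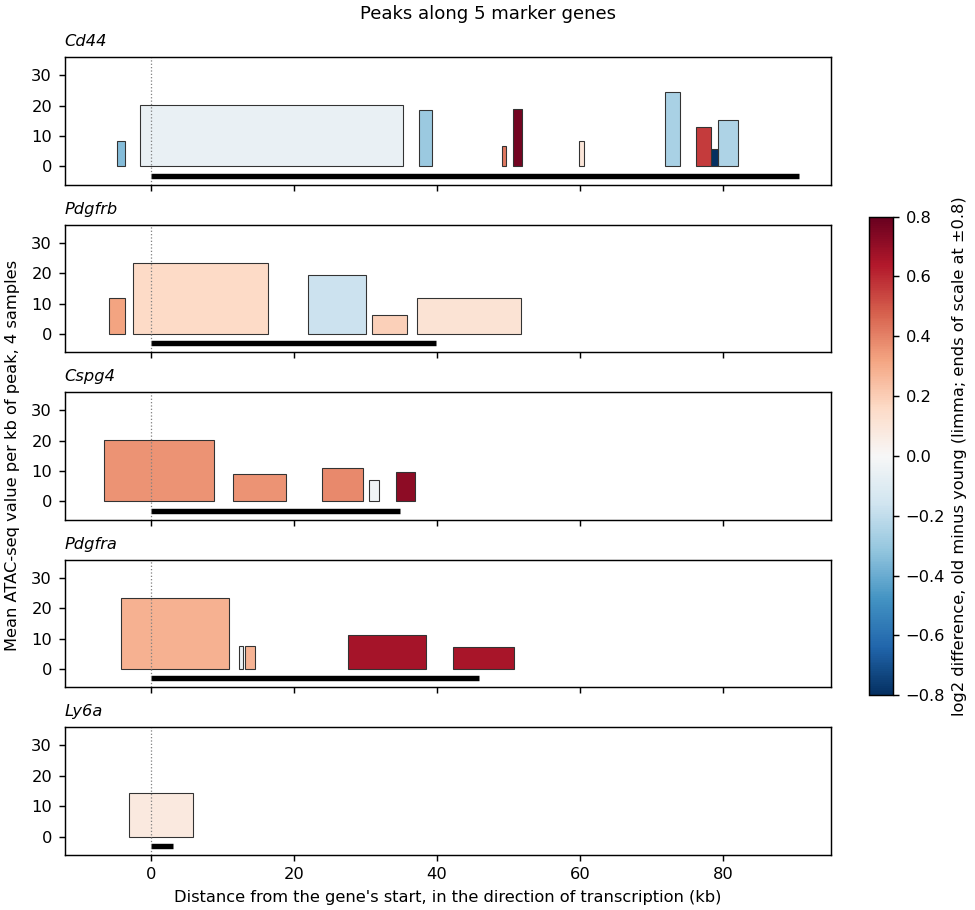
Peaks of the 5 genes with the widest promoter peaks, by distance from the gene's start in kb (x axis; black bar, the gene). The height of a box is the mean deposited value per kb of peak over the 4 samples, and its colour the log2 difference, old minus young. The boxes of Pdgfra and Cspg4 are mostly red (higher in old MSCs), those of Cd44 mixed, and the dark blue box 78265 to 79264 bp into Cd44 is the narrow peak that passed an adjusted p of 0.05.

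For Pdgfra, the first antigen of the sort, the scaled value of the promoter peak was 357 and 424 in the old samples and 344 and 296 in the young. The groups did not overlap, but the difference was small (log2 difference 0.29, SE 0.13, limma adjusted p = 0.297). Of the other 4 peaks of the gene, those nearest the promoter peak were at -0.04 and 0.28, and those farther in at 0.66 each; these were not tested against each other. In the peak over chr5:75179801-75190700, which begins 27509 bp after the start and covers coding exons, the values were 122 and 181 in old and 93.2 and 93.8 in young samples. Both old samples were above both young, with old replicate 2 the highest (log2 difference 0.66, SE 0.19, limma adjusted p = 0.0815). The next peak, chr5:75194501-75203000, which covers the end of the gene, gave 69.3 and 86.0 in old and 51.4 and 45.7 in young samples, with a log2 difference of 0.66 (SE 0.20, limma adjusted p = 0.103). Neither passed the threshold. Without old replicate 1 these 3 peaks did pass it, at log2 differences of 0.41, 0.94 and 0.81, and without old replicate 2 none of them did. The other antigen of the sort, Ly6a, gave 139 and 123 in old and 121 and 126 in young samples. These overlapped, and the log2 difference of 0.08 (SE 0.16) was within its error.

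Among the genes of the general MSC criteria, Cd44 held the peak with the lowest p. This narrow intronic peak (chr2:102822401-102823400) had 3 and 9 counts in the old samples and 27 and 28 in the young, or 1.29 and 2.74 against 8.96 and 8.31 after scaling. Both old samples were low, with a log2 difference of -1.72 (SE 0.40, limma adjusted p = 0.0469). It was the only 1 of the 51 peaks past an adjusted p of 0.05, which 0.771% of all peaks passed as lower and 0.351% as higher. Under the other settings tried, its adjusted p from limma ran from 0.00107 to 0.394, always with a negative difference. From the summed counts of 12 and 55, the young samples were 4.02 times the old (95% exact binomial interval 2.13 to 8.25, for counting error only). The peak touched other called peaks on both sides. The one nearer the start (chr2:102823401-102825500) went the opposite way, with 25.8 and 39.6 in old and 21.2 and 21.7 in young samples (log2 difference 0.56, SE 0.25, limma adjusted p = 0.284). The one on the other side (chr2:102819601-102822400) was lower in both old samples, like the narrow peak. Its values were 38.3 and 38.7 in old and 45.1 and 46.6 in young samples (log2 difference -0.25, SE 0.21, limma adjusted p = 0.598). Over the 3 touching peaks together, 5900 bp, the scaled values were 65.4 and 81.1 in old and 75.3 and 76.6 in young samples, which overlap. The central 300 bases of the peak that passed are shown on the + strand of GRCm38.p6, with capitals as before; they are intronic, hold 1 CpG and match the CCAAT box, the TATA letters and the E-box.
Cd44 intronic peak, chr2:102822751-102823050, + strand: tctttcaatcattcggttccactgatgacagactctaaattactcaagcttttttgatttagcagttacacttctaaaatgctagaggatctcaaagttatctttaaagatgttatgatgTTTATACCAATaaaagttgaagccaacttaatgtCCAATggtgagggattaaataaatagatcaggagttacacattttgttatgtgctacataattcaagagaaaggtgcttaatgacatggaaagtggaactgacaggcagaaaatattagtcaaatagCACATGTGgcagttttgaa

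The large domain over the Cd44 promoter differed far less. Its scaled values were 703 and 727 in the old and 750 and 740 in the young samples. Both old samples were lower, by a log2 difference of -0.06 (SE 0.10), the smallest error of the 51 peaks. An intronic peak at chr2:102849801-102851100 ranged more widely, with 26.2 and 35.4 in old and 12.3 and 24.6 in young samples (log2 difference 0.77, SE 0.30, limma adjusted p = 0.199).

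Nt5e and Thy1 varied along the gene. The promoter peak of Nt5e had 92.1 and 121 in old and 84.6 and 73.3 in young samples, which did not overlap (log2 difference 0.42, SE 0.19, limma adjusted p = 0.277). Near the end of the same gene, the peak at chr9:88367901-88370000 went the other way, with 26.2 and 23.8 in old and 36.5 and 37.4 in young samples (log2 difference -0.55, SE 0.23, limma adjusted p = 0.238). The promoter peak of Thy1 was level at 112 and 126 in old and 115 and 124 in young samples, whereas the peak over the end of the gene (chr9:44048101-44050200) had 39.6 and 43.9 in old and 25.9 and 28.8 in young samples. The latter groups did not overlap (log2 difference 0.59, SE 0.22, limma adjusted p = 0.189). For Eng, the weak promoter peak had 18.9 and 22.3 in old and 24.2 and 14.2 in young samples, and its dense 3′ exonic peak 54.6 and 72.0 against 42.5 and 44.8 (log2 difference 0.51, SE 0.21, limma adjusted p = 0.228).

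Of the perivascular markers, Cspg4 had 4 of its 5 peaks higher in both old samples, and none passed the threshold. Its promoter peak, which also covers the start of the neighbouring gene Odf3l1, gave 284 and 416 in the old and 282 and 253 in the young samples (log2 difference 0.36, SE 0.16, limma adjusted p = 0.262). Old replicate 2 was high and old replicate 1 barely above the young samples: the log2 difference was 0.64 without old replicate 1 and 0.09 at the lowest when another sample was left out. The peak over the end of the gene (chr9:56899301-56902000) had 26.2 and 39.9 in old and 22.6 and 16.6 in young samples (log2 difference 0.71, SE 0.26, limma adjusted p = 0.184). The promoter peak of Pdgfrb had 427 and 494 in old and 414 and 410 in young samples, and 4 of its 5 peaks were above 0, from 0.11 to 0.32 on the log2 scale. The exception, at -0.17, was chr18:61067201-61075200. The promoter peak of Mcam was nearly level, with 45.2 and 46.7 in old and 44.8 and 42.1 in young samples (log2 difference 0.08, SE 0.21).

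In Alcam 9 of the 12 peaks were below 0, and in Cd44 6 of 10. The dense promoter peak of Alcam gave 342 and 270 in the old and 341 and 325 in the young samples after scaling. These overlapped (log2 difference -0.13, SE 0.14), although both old samples were lower as deposited. Its intronic peak at chr16:52370801-52372800 had 70.1 and 37.8 in old and 60.4 and 78.9 in young samples (log2 difference -0.41, SE 0.25, limma adjusted p = 0.426). Old replicate 2 was low there and in the promoter, and without old replicate 1 this peak passed the threshold at -0.85. The lowest p of the gene fell on a peak of the opposite direction (chr16:52311001-52311800), with 20.2 and 13.7 in old and 13.3 and 8.31 in young samples (log2 difference 0.62, SE 0.31, limma adjusted p = 0.333). The densest peak of Alcam away from the promoter, chr16:52291901-52294700 at 48.5 per kb, showed 151 and 107 in old and 124 and 158 in young samples, which overlap.

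**Figure D4:**
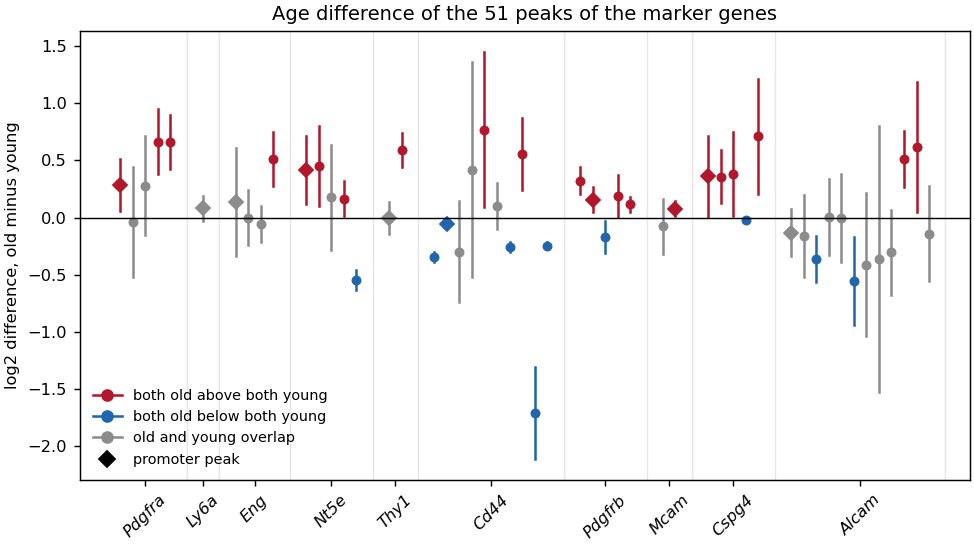
Log2 difference, old minus young, of the 51 peaks (y axis), ordered within each gene by distance from its start; a bar spans the 4 differences between single old and young samples, and diamonds mark promoter peaks. The Cd44 intronic peak at -1.72 lies apart from the rest, which run from -0.56 to 0.77, and the peaks of Pdgfra, Pdgfrb and Cspg4 lie mostly above 0.

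Summed over all peaks of a gene, no marker gene passed an adjusted p of 0.01 (lowest limma adjusted p = 0.519), a threshold that 2 of 17308 genes, 0.0116%, did pass. Pdgfra and Cspg4 had the largest differences, 0.41 (SE 0.14) and 0.38 (SE 0.16). They were the 2 marker genes with an unadjusted p under 0.05, which 3.58% of all genes had as higher in old MSCs. Both differences leaned on old replicate 2. Without old replicate 1 they were 0.57 for Pdgfra and 0.63 for Cspg4, and without old replicate 2 they were 0.25 and 0.13. In Pdgfra, Cspg4, Eng, Nt5e and Pdgfrb both old samples lay above both young samples, and in no marker gene below, beside 16.4% and 25.2% of all genes. The remaining log2 differences were 0.21 for Eng, 0.19 for Nt5e, 0.13 for Thy1, 0.10 for Pdgfrb, 0.08 for Ly6a, -0.000710 for Mcam, -0.06 for Cd44 and -0.15 for Alcam. On the values as deposited the signs of Eng, Nt5e, Thy1, Pdgfrb and Ly6a turned, to between -0.08 and -0.21, whereas the median of all peaks moved to -0.27, and those of Pdgfra and Cspg4 stayed above 0. In summed signal, not divided by length, the marker genes ranked highest at the 96.5 percentile for Cd44, 95.5 for Pdgfrb and 93.9 for Alcam. Their lowest ranks were 42.6 for Ly6a and 32.8 for Mcam. Such sums grow with the total width of a gene's peaks, which was 50400 bp in Cd44 and 4900 bp in Mcam. Per kb of peak these 2 genes had means of 18.7 and 19.4. The blood and endothelial genes overlapped this range of ranks. The highest of them, whose peaks also lie over neighbouring genes, was at 74.4 and Pecam1 at 59.2, both above Nt5e at 56.6, Thy1 at 50.1 and Eng at 45.6. All others of that list, among them Ptprc at 13.0, ranked below Mcam. Of the other stromal surface genes 2 were higher and 3 lower at an unadjusted p under 0.05, and of the blood and endothelial genes 0 and 1, with none past an adjusted p of 0.01.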

How the data were processed

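ATAC-seq values of 2 old and 2 young MSC samples, all cultured at 2% O2, were analysed. The deposited values, named RPKM by the authors, are treated as a score: they are counts per 10000000 of the library total, not divided by peak length. Per the methods, written for MSCs at high or low oxygen, reads were aligned to mm10 with bowtie2, duplicates were removed with Picard and peaks were called with chromstaR on bins. No peak ended beyond a GRCm38 chromosome. Values were divided by RLE factors, and log2(value + 1) was fitted with limma 3.58.1 (trend and robust moderation) over all 117282 peaks, or over sums per protein-coding gene, with Benjamini-Hochberg adjustment and a threshold of 0.01. Fold changes on this scale understate those of low peaks. Values per kb are deposited values divided by peak width. Tested on simulated data for this comparison (117282 peaks, 200 changed), the peak fit recovered 27% of changes of 1 and 90% of changes of 2 on the log2 scale, with 0 false calls. The simulated samples shared a single fixed spread, with no outlying sample. Only peaks above a minimum mean value were changed, which the narrow Cd44 peak does not reach. These rates therefore do not carry over to low peaks or to the spread between the real samples. A promoter peak lies within 1 kb of a protein-coding transcript start. For each gene the text names the promoter peak, the densest peak, the peak with the lowest p and any past an adjusted p of 0.05; other peaks were named after their values were seen. The genes and comparison lists were chosen with earlier results of these data known. The deviations of same-numbered samples from their group means correlated at -0.0993 across peaks. With 2 samples per group this cannot decide whether same-numbered samples were prepared together. 1 gene of the blood and endothelial list is counted but not named here.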

Additional observations from a re-analysis of the deposited data

How the results depend on the processing

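Among the 51 marker peaks, 0 passed as lower and 0 as higher with quantile normalization, equal total signal, either pseudocount and plain moderation. The same held for the low-value filter, gene bodies alone, 10 kb upstream and limma-voom on recovered counts. Limma-voom was chosen after seeing the data and stands for the planned edgeR test, which was not run. 1 passed as lower on the values as deposited (1.14% of all peaks), with a threshold of 0.05 (0.771%) and with the replicate block (0.773%). The blocked fit, in which samples were paired by replicate number alone, gave 1 lower and 0 higher. With the crossed replicate block, also added later, 1 was lower and 1 higher, beside 1.87% and 0.871% of all peaks. Leaving out each sample gave 0 to 1 lower and 0 to 10 higher (0% to 5.45% and 0.00682% to 3.35% of all peaks), a median of 0.028 to 0.11 and 37.3% to 49.0% below 0. The median was -0.20 and 66.7% were below 0 as deposited, 0.10 and 39.2% with equal total signal, and 0.11 with the low-value filter. As deposited, log2 differences over genes turned for Pdgfrb (-0.19), Ly6a (-0.21), Eng (-0.076), Nt5e (-0.10) and Thy1 (-0.16), and over promoter peaks for Eng (-0.14), Ly6a (-0.21), Mcam (-0.20), Pdgfra (-0.00228) and Pdgfrb (-0.13). Mcam over the gene turned to 0.000852 with quantile normalization and 0.078 over the gene body, and the Thy1 promoter peak to 0.035 with quantile normalization. Differences that turned on leaving out a sample ran, over genes, from -0.0063 to 0.17 for Ly6a, -0.10 to 0.10 for Mcam and -0.36 to 0.072 for Alcam, and over peaks from -0.30 to 0.037 for the Alcam promoter, -0.23 to 0.50 for the Eng promoter, -0.0063 to 0.17 for Ly6a, -0.25 to 0.10 for the upstream Mcam peak and -0.087 to 0.081 for the Thy1 promoter. Apart from the low-value filter, which tests fewer peaks, the cause was not tested. Low counts limit the narrow peaks: old replicate 1 had 3 counts in the Cd44 peak.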

Other observations

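Over the 3′ ends of the marker genes, a class chosen after the values were seen, 4 peaks lay away from promoters, in Cspg4 (log2 difference 0.71, old minus young), Pdgfra (0.66), Thy1 (0.59) and Pdgfrb (0.11). Both old samples were above both young samples in all 4, and the median was 0.63. Over the 1661 such peaks at 3′ ends of protein-coding genes the median was 0.10, 36.5% were below 0 and in 30.2% both old samples were above. None of the 4 passed an adjusted p of 0.01 with limma, and 3 were higher at an unadjusted p under 0.05, beside 0 of the 1661 past 0.01 and 11.2% higher at an unadjusted p under 0.05. The difference between 3′ ends and other peaks was not tested.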
